A study of Naumovozyma castellii with 10 samples.

Results

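The comparison sets cells of the budding yeast Naumovozyma castellii that lack UPF1 against wild-type cells, both untreated and with Dicer intact. It takes 4 of the 10 small RNA libraries of the series, 2 of upf1 and 2 of wild type (WT), chosen by the genotype and treatment in the labels. Every annotated feature other than the synthetic control entries was counted once per interval and strand, which gave 8407 features. Of these, 7872 passed a filter on low values and were tested, namely 5361 mRNAs, 950 XUTs, 1143 CUTs, 133 SUTs, 241 tRNAs, 37 snoRNAs, 3 snRNAs and 2 rRNAs, together with 2 RNase P RNA entries.

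The upf1 strain (YAM2890) has the genotype MATalpha ura3-1 ho with UPF1 replaced by kanMX6, and the WT strain (YAM2478) has the genotype MATalpha ura3-1 ho. Both therefore share the ura3-1 and ho alleles, and each genotype was 1 strain, so that a clone cannot be told apart from its genotype. Cultures grew at 25 °C in YPD (a rich medium) until OD600 reached 0.5, and the labels call the libraries of a group biological replicates. A further group, the WT strain given cycloheximide at 100 µg/mL for 15 min (WT CHX, 2 libraries), adds to the estimate of spread and enters 1 comparison. The remaining 4 libraries lack Dicer.

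Upf1 is an RNA helicase at the centre of nonsense-mediated decay (NMD), the pathway that destroys cytoplasmic RNAs on which translation stops too early. Many long non-coding RNAs (lncRNAs) of yeasts carry short reading frames and are removed by the same pathway. Unlike Saccharomyces cerevisiae, N. castellii has kept RNA interference, in which the RNase III enzyme Dicer cuts double-stranded RNA into small RNAs that Argonaute binds. XUTs are lncRNAs that accumulate without the exonuclease Xrn1, CUTs are cryptic unstable transcripts that the nuclear exosome removes, and SUTs are stable unannotated transcripts.

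Values are densities, in reads per nucleotide of a feature scaled by the authors to small RNAs of Schizosaccharomyces pombe that were mixed in before library preparation. A density is thus per amount of total RNA, and in a bulk culture more RNA per cell and more cells that carry it cannot be told apart. The upf1 libraries held 6237106 and 6904640 reads over the features and the WT libraries 4144522 and 3389205. NAM7, the gene for Upf1 in the gene table, had 0 reads in both upf1 libraries, against 13 and 3 reads in WT. At so few reads the difference missed the threshold (log2 fold change -0.88, SE 0.47, limma adjusted p = 0.151). DCR1 and AGO1, the genes for Dicer and Argonaute, carry no symbol in the gene table and are not reported.

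At a Benjamini-Hochberg adjusted p of 0.05 by limma, 4549 of the 7872 features (57.8%) were higher in upf1 than in WT and 50 (0.635%) were lower. The median log2 fold change was 1.19. This split rests on the spike-in. When each library was instead centred on its median mRNA density, which removes a log2 shift of 1.22 between upf1 and WT, 2114 were higher and 1026 were lower. Changes below are on the spike-in scale unless the shift is named.

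The total density over all features was 3750 and 3803 in the upf1 libraries, against 1679 and 1602 in the WT libraries, a ratio of 2.30 ± 0.0658 (SD over the pairs of libraries, n = 2 each). The groups did not overlap, and the exact two-sided permutation p of 0.333 is the lowest that 2 against 2 allows. The sum was also spread over more features in the mutant. In upf1 it took the 20 and 19 densest features to reach 50% of a library's density, against 7 and 7 in WT. To reach 90% took 798 and 763 features in upf1 and 236 and 264 in WT. The 10 densest features of a library held 40.5% and 42.4% of its density in upf1, and 59.1% and 58.7% in WT.

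Most of the densest loci changed by less than the median feature. XUT0769 (chromosome 7, 140238 to 141990, minus strand), the densest feature in upf1, had 341 and 395 reads per nt in upf1 and 197 and 190 in WT. That is a log2 fold change of 0.92 (SE 0.11, limma adjusted p = 2.71e-04) on the spike-in scale, and the sign turns to -0.31 after centring on the median mRNA. XUT0620 (chromosome 5, 175427 to 177659, plus strand) had 157 and 141 reads per nt in upf1 and 86.9 and 82.6 in WT, a log2 fold change of 0.81 (SE 0.11), which turns to -0.41 in the same way.

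At XUT0525 (chromosome 3, 1160280 to 1161794, minus strand) the libraries overlapped, with 83.0 and 76.6 reads per nt in upf1 and 77.2 and 78.5 in WT (log2 fold change 0.03, SE 0.10, limma adjusted p = 0.786). XUT0480 (chromosome 3, 589401 to 592541, minus strand) behaved in the same manner, with 53.0 and 50.7 in upf1 and 51.3 and 48.9 in WT (log2 fold change 0.05, SE 0.10, limma adjusted p = 0.683). Both of these XUTs overlap lncRNAs on the opposite strand and no mRNA. Their log2 changes are -1.19 and -1.17 after centring on the median mRNA. XUT0526, on the strand opposite XUT0525, was called lower in upf1. It had 22.8 and 19.0 reads per nt in upf1 and 28.6 and 26.4 in WT (log2 fold change -0.40, SE 0.13, limma adjusted p = 0.0369).

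The largest change among the 12 densest features was at XUT0859 (chromosome 8, 83398 to 85474, plus strand), antisense to the mRNA NCAS_0H00470. It had 111 and 108 reads per nt in upf1, against 32 and 32.6 in WT, a log2 fold change of 1.76 (SE 0.09, limma adjusted p = 5.65e-06) that stays above 0 after centring. NCAS_0H00470 on the other strand had 8.64 and 9.36 in upf1 and 5.35 and 5.41 in WT, a log2 fold change of 0.74 (SE 0.10). The 12 also include XUT0891, with 82.4 and 119 reads per nt in upf1 and 41.3 and 45.8 in WT (log2 fold change 1.19), and the overlapping annotations CUT1261 and XUT0958, which share their reads and rose by a log2 of 0.68. The mRNAs NCAS_0A09620, NCAS_0A09630 and NCAS_0E00690 and the XUT XUT0909 complete them, with log2 fold changes between 0.41 and 0.65. Of these, the call of NCAS_0A09620 is lost without any 1 of the 4 libraries (limma adjusted p 0.0604 to 0.228), and that of XUT0909 without upf1 replicate 1 (0.0538) or WT replicate 2 (0.0841).

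**Figure D1:**
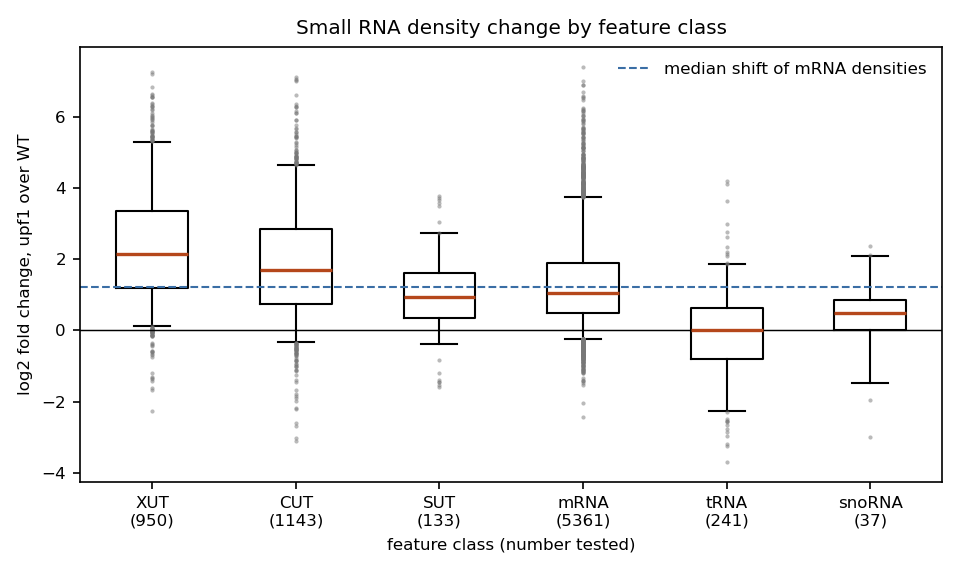
Log2 fold change of density in upf1 over WT for each tested feature, by annotated class; boxes span the interquartile range with the median in red, whiskers the 5th to 95th percentile, and dots are features beyond them. The medians of XUTs (2.15) and CUTs (1.69) lie above the dashed mRNA-median shift of 1.22. Those of SUTs (0.93) and mRNAs (1.06) lie just below it, that of snoRNAs is 0.49, and tRNAs centre on 0.

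By class, 748 of 950 XUTs rose (78.7%) and 749 of 1143 CUTs (65.5%), against 57.8% of all features, and after centring on the median mRNA the counts were 481 and 423 with 66 and 106 lower. Among SUTs 69 of 133 rose, and 21 did so after centring with 25 lower, so that their direction depends on the scale. For mRNA strands the counts were 2934 of 5361 on the spike-in scale, and 1184 higher with 732 lower after centring. Of tRNAs, 33 of 241 were higher and 11 lower, and after centring 4 were higher and 73 lower. Of snoRNAs, 16 of 37 were higher and 6 lower (median log2 fold change 0.49), and after centring 1 was higher and 20 lower. Features without a single read in one of the groups, 207 in all, enter these medians through the pseudocount. With each of them placed at the bound that 3 reads over the group allow, the CUT median was 1.63 and the XUT and mRNA medians moved by less.

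The largest lncRNA rises reached more than 100-fold. XUT0058 (chromosome 1, 601672 to 603421, minus strand) had 7.74 and 7.42 reads per nt in upf1, against 0.0465 and 0.0487 in WT (log2 fold change 7.27, SE 0.13, limma adjusted p = 5.67e-07), the largest change among XUTs with separated replicates. XUT0341 (chromosome 2, 801611 to 802216, minus strand) had 0.829 and 0.810 reads per nt in upf1, against 0.00560 and 0.00283 in WT, where these values rest on 7 and 3 reads. Its log2 fold change was 7.22 (SE 0.33, limma adjusted p = 2.97e-06), and the mRNA on the other strand, NCAS_0B04430, rose by a log2 of 6.47 (SE 0.22). XUT0314 (chromosome 2, 548319 to 550120, plus strand), a far denser locus, had 7.14 and 6.83 reads per nt in upf1 and 0.0708 and 0.0672 in WT (log2 fold change 6.63, SE 0.12, limma adjusted p = 5.67e-07). Its partner NCAS_0B03170 was denser still in the mutant, with 10.2 and 10.7 reads per nt, and had 0.0769 and 0.0947 in WT. At these loci the small RNAs of the mutant came from both strands, at densities of the same order.

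CUTs showed changes of the same size, some of them without an annotated partner. CUT0642 (chromosome 3, 910327 to 910910, plus strand) overlaps no antisense feature and had 0.683 and 0.736 reads per nt in upf1, against 0.00332 and 0.00392 in WT (log2 fold change 7.13, SE 0.19, limma adjusted p = 6.43e-07). CUT0912 (chromosome 6, 3941 to 4686, plus strand), also without a partner, had 0.661 and 0.646 in upf1 and 0.00390 and 0.00306 in WT. CUT1109 (chromosome 8, 9256 to 10139, minus strand), opposite another lncRNA, had 2.43 and 2.67 in upf1 and 0.0225 and 0.0136 in WT. Each of these had fewer than 50 reads per WT library, and the replicates of each group lay close together next to the difference between groups.

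SUTs rose much less. The largest change, at SUT043 (chromosome 10, 110788 to 111103, minus strand), was 0.189 and 0.191 reads per nt in upf1 against 0.0123 and 0.0127 in WT, a log2 fold change of 3.78 (SE 0.26, limma adjusted p = 2.01e-05). SUT128, antisense to LAP2, rose by a log2 of 3.71 (SE 0.30), SUT059, antisense to AGC1, by 3.66 (SE 0.27) and SUT025, antisense to LSB6, by 3.57 (SE 0.23). Their partners LAP2, AGC1 and LSB6 rose as well, by 3.10, 2.34 and 3.29. No SUT was among the 151 called features with a log2 fold change of at least 5, of which 57 were XUTs, 33 CUTs and 61 mRNAs.

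Among mRNAs with a symbol, the 4 largest rises were TAH1, SPS100, TAG1 and PNS1. SPS100 (chromosome 4, 80062 to 81123, plus strand), a spore wall protein gene of S. cerevisiae, had 0.608 and 0.628 reads per nt in upf1, against 0.00456 and 0.00430 in WT (log2 fold change 6.71, SE 0.18, limma adjusted p = 6.51e-07). TAG1 (chromosome 1, 1741889 to 1743649, plus strand) had 1.85 and 2.09 in upf1 and 0.0234 and 0.0156 in WT. PNS1 (chromosome 8, 484622 to 486295, plus strand) had 0.398 and 0.361 in upf1 and 0.00319 and 0.00205 in WT. The 2 upf1 libraries stood far above both WT libraries in each gene.

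TAH1 (chromosome 4, 855490 to 855855, plus strand), which encodes a co-chaperone of Hsp90 in S. cerevisiae, had 0.442 and 0.507 reads per nt in upf1 and 0.00927 and 0 in WT, the WT values resting on 7 and 0 reads (log2 fold change 6.90, SE 0.84, limma adjusted p = 3.46e-04). Among genes without a symbol, NCAS_0J00110 (chromosome 10, 2167 to 3219, minus strand) rose most, with 0.553 and 0.624 in upf1 and 0.00138 and 0.00271 in WT, 3 and 5 reads. The XUT opposite to it, XUT0972, rose by a log2 of 6.10 (SE 0.36). NCAS_0A03060, opposite XUT0058, came after it, with 4.58 and 4.48 in upf1 and 0.0310 and 0.0366 in WT. Of the 4 genes with symbols only TAG1 has an annotated antisense lncRNA.

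Of the tested features, 179 had no read at all in WT, and 83 of these were called higher, next to 57.8% of all features. With no WT read they passed the filter on low values only through upf1 or WT CHX, so their calls follow in part from that filter. NCAS_0E01810 (chromosome 5, 354074 to 354589, minus strand) had 46 and 52 reads in the upf1 libraries, and with a floor of 3 reads over both WT libraries it was at least 40.9-fold higher in upf1. DAL2 (chromosome 4, 947116 to 948132, minus strand), which encodes an enzyme of allantoin degradation in S. cerevisiae, had 24 and 14 reads in upf1, 0 in WT and 0 in WT CHX, and was at least 16.1-fold higher in upf1 than in WT.

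**Figure D2:**
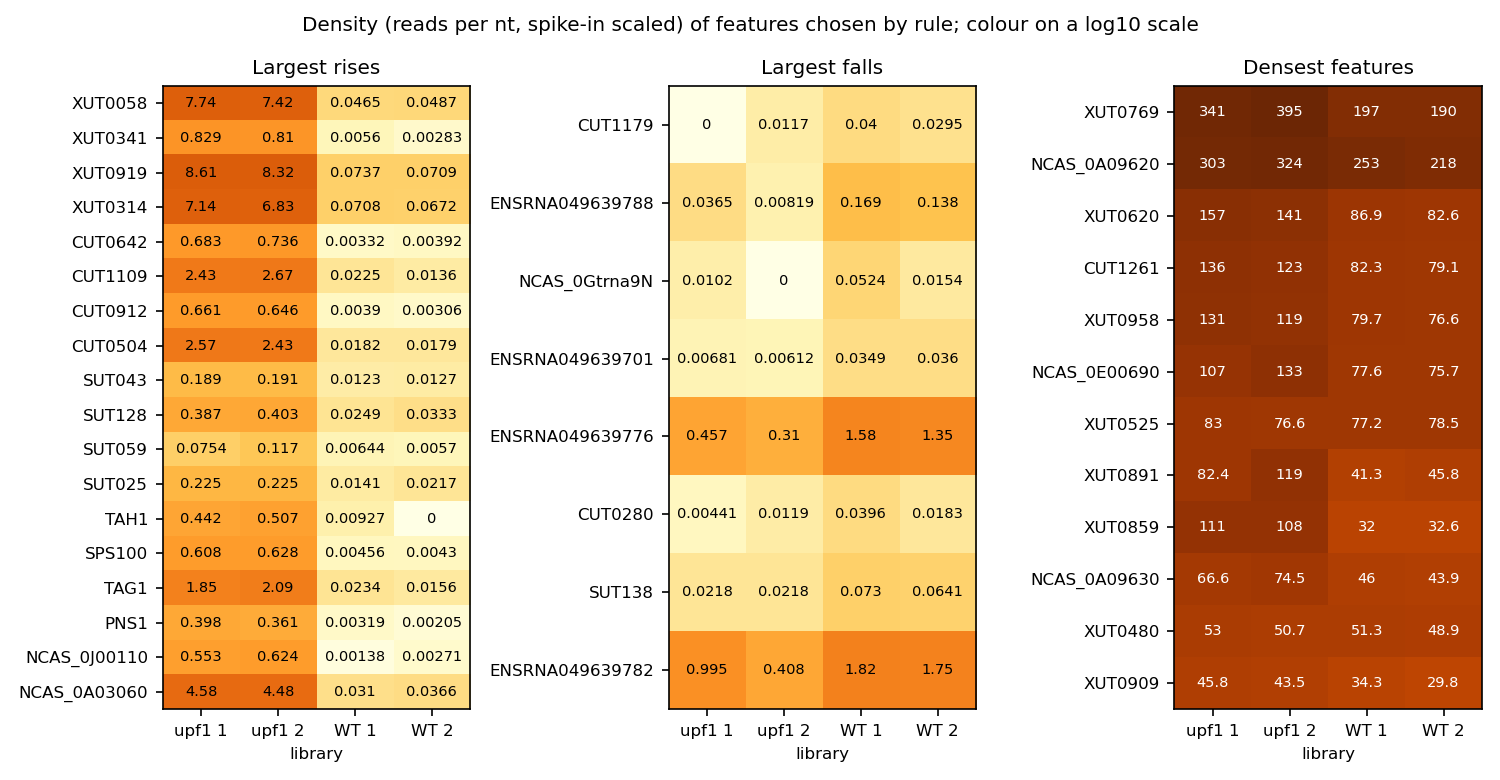
Density in reads per nt, spike-in scaled, of the features with the largest rises, the largest falls and the highest density, in columns for upf1 replicates 1 and 2 and WT replicates 1 and 2; colour follows the log10 of the density. Both upf1 columns stand apart from both WT columns among the rises, while XUT0525 and XUT0480 on the right hold nearly equal values in all 4 libraries.

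Position along the chromosome went with the size of the change. Distance was taken from the first base and from the last annotated base of each chromosome. Within 10 kb of an end, 99 of 131 features (75.6%) rose, with a median log2 fold change of 3.02. From 10 to 20 kb it was 94 of 135 (69.6%, median 1.97), from 20 to 50 kb 263 of 420 (62.6%, 1.26), from 50 to 100 kb 425 of 726 (58.5%, 1.23), and farther in 3664 of 6426 (57.0%, 1.17). No feature within 50 kb of an end was among those lower in upf1. After centring on the median mRNA, 81 of the 131 features nearest to an end were higher and 6 lower, so that this gradient does not depend on the scale.

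The gradient was steepest for XUTs, whose median was 4.62 within 10 kb of an end (31 of 37 higher) and 2.11 beyond 100 kb (578 of 738). CUTs had a median of 3.24 within 10 kb (25 of 29 higher) and 1.65 beyond 100 kb, and mRNAs 1.88 (43 of 65 higher) and 1.04. Summed over the 266 tested features within 20 kb of an end, density was 214 and 213 in upf1, against 25.9 and 25.3 in WT, a ratio of 8.35. In each of the 20 ends both upf1 sums lay above both WT sums, and in 16 the median change exceeded that of all features. The ratio of sums ran from 3.54 at the right end of chromosome 8, with 61.7 and 61.9 in upf1 against 17.6 and 17.3 in WT, to 60.5 at the left end of the same chromosome, with 36.7 and 36.4 in upf1 against 0.614 and 0.593 in WT. Features at 1 end can share transcripts and reads, so the 20 ends are described here and not tested.

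On the left end of chromosome 9, the neighbouring XUT0919 (4830 to 5079, plus strand) and XUT0920 (5104 to 5572, plus strand) lie opposite the mRNA NCAS_0I00100. XUT0920 also lies opposite the mRNA NCAS_0I00110 (5312 to 6670, minus strand). XUT0919 had 8.61 and 8.32 reads per nt in upf1, against 0.0737 and 0.0709 in WT (log2 fold change 6.84, SE 0.23, limma adjusted p = 1.07e-06). XUT0920 had 8.07 and 7.35 in upf1 and 0.0889 and 0.0731 in WT, and NCAS_0I00100 had 4.60 and 4.22 in upf1 and 0.0601 and 0.0639 in WT. NCAS_0I00110 had 4.86 and 4.43 in upf1 and 0.0810 and 0.0606 in WT. All of these lie within 20 kb of an end, as do 47 of the 151 features with a log2 fold change of 5 or more, of which 21 are XUTs, 9 CUTs and 17 mRNAs.

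Longer lncRNAs changed more. Of XUTs under 500 nt, 200 of 322 rose (62.1%, median log2 fold change 1.61), from 500 to 1000 nt 300 of 358 (83.8%, 2.12), from 1000 to 2000 nt 194 of 210 (92.4%, 2.95), and from 2000 nt 54 of 60 (90%, 3.22). CUT medians ran 1.47, 1.81, 2.42 and 3.40 over the same 4 bins. A longer feature has more reads at the same density and is called more readily, which bears on the percentages but less on the medians. Among XUTs with 0.01 to 0.1 reads per nt in WT replicate 1, with changes taken against WT libraries as before, the medians were 1.54, 2.33, 3.29 and 4.31. mRNAs had no such order, with medians of 1.05, 1.09, 1.15 and 0.90 over the 4 bins and 596 of 1219 called higher in the longest.

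The change of mRNAs went with their cover by an antisense lncRNA. Where no annotated lncRNA lies opposite, 2046 of 4104 mRNAs rose (49.9%, median log2 fold change 0.94). With up to 0.5 of the coding length covered it was 466 of 727 (64.1%, 1.31), from 0.5 to 0.9 202 of 275 (73.5%, 1.58), and above 0.9 220 of 255 (86.3%, 2.32). After centring on the median mRNA, 711 of the uncovered mRNAs were higher and 574 lower, whereas of the most covered ones 161 were higher and 23 lower. The order was the same for mRNAs more than 20 kb from an end, with medians of 0.93, 1.30, 1.57 and 2.22. The most covered mRNAs were also denser in WT, with a median of 0.0357 reads per nt against 0.00574 for the uncovered. Against WT replicate 2, mRNAs with 0.1 to 1 reads per nt in WT replicate 1 had a median change of 1.62. Those above 0 to 0.01 had 0.97. Cover was not tested apart from density. Of 16 mRNAs that overlap only another mRNA on the opposite strand, 13 rose, with a median of 2.05.

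XUTs and CUTs with an antisense partner were likewise called higher more often than those without. Of XUTs antisense to an mRNA 518 of 616 rose (median 2.22), of those antisense to a lncRNA alone 96 of 128 (2.49, or 2.34 with members at 0 reads placed at their bound), and among XUTs lacking any antisense feature 134 of 206 (1.71). The last are also the sparsest, with a median density of 0.0207 in upf1 and 0.00443 in WT, next to 0.139 in upf1 and 0.0220 in WT for XUTs antisense to an mRNA. Restricted to 1000 nt and over, the 3 XUT medians were 3.16, 3.24 and 2.25. Of CUTs antisense to an mRNA 578 of 841 rose (median 1.68). Among CUTs antisense to a lncRNA alone it was 66 of 110 (1.99, or 1.90 with bounds). Without an antisense feature it was 105 of 192 (1.63, or 1.41 with bounds).

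**Figure D3:**
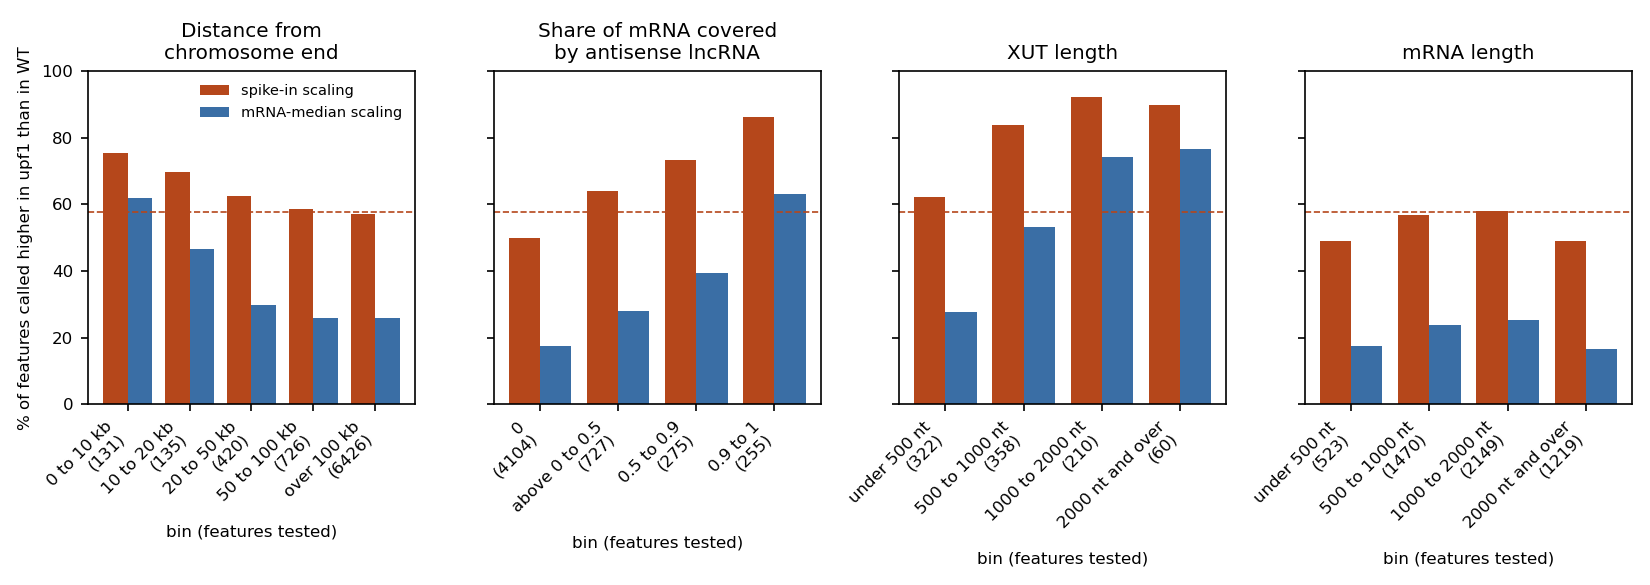
Percentage of tested features called higher in upf1 than in WT, by distance from the chromosome end, share of an mRNA covered by antisense lncRNA, XUT length and mRNA length; red bars use the spike-in scale, blue bars the scale centred on the median mRNA, and the dashed line is the 57.8% of all features. Bars fall with distance from the end (75.6% to 57.0%), climb with antisense cover (49.9% to 86.3%) and with XUT length (62.1% under 500 nt and 92.4% from 1000 to 2000 nt), and lie between 48.9% and 58.1% for mRNA length.

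Members of an overlapping pair mostly moved together. Over 1503 pairs of an mRNA and a lncRNA that overlap by at least 100 nt on opposite strands, the log2 ratio of lncRNA to mRNA density changed by a median of 0.12, and 80.7% of pairs stayed within 1 log2 unit. This ratio does not depend on library scaling other than through the pseudocount. Its densities are over whole features, not over the overlap alone. The same ratio was not taken for features that do not overlap. By limma, 8 pairs (0.532%) had a higher ratio in upf1 and 11 (0.732%) a lower one, with 181 and 108 at an unadjusted p under 0.05. All 19 calls were lost when any 1 library was left out and when the upf1 and WT libraries were fitted alone, so the pairs named next are given for their values.

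XUT0427 on chromosome 3 and its mRNA partner NCAS_0C00210 shifted most towards the mRNA strand. The XUT had 0.546 and 0.559 reads per nt in upf1 and 0.192 and 0.164 in WT, while the mRNA had 0.532 and 0.506 in upf1 and 0.0193 and 0.0138 in WT. The lncRNA strand was thus 1.03 and 1.1 times as dense as the mRNA strand in upf1, against 9.99 and 11.9 times in WT. CUT0565, which lies within XUT0427 on the same strand, gave a change of -3.20 on the log2 scale, next to -3.24 for XUT0427.

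CUT0258 against AXL1 was 0.154 and 0.190 in upf1 and 1.45 and 1.18 in WT, as the AXL1 strand rose more. In the other direction, XUT0299 against TRS23 was 4.70 and 3.95 in upf1 and 0.583 and 0.761 in WT, and the same XUT against VHS1 was 6.97 and 7.55 in upf1 and 1.47 and 1.47 in WT. XUT0114 against SMF2, a gene for a metal ion transporter, was 25.0 and 22.7 in upf1 and 6.81 and 7.11 in WT. In each of these pairs the 2 libraries of a group were close and the groups did not overlap.

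**Figure D4:**
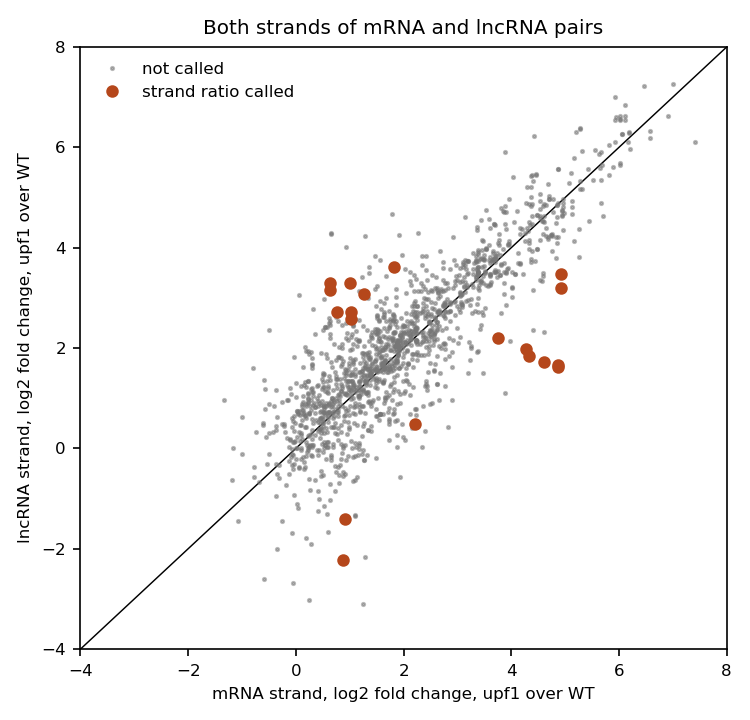
Log2 fold change of upf1 over WT on the lncRNA strand (vertical) against that on the mRNA strand (horizontal) for 1503 overlapping pairs; the line marks equal change and red points are the 19 pairs whose strand ratio was called. Most points follow the line across the whole range, and the called pairs lie away from it on either side.

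Counts of genes called in the lists below stand against 57.8% of all features and 54.7% of mRNAs called higher, and no list was tested as a set. Their counts after centring stand against 2114 of 7872 features and 1184 of 5361 mRNAs higher, with 1026 and 732 lower. Of genes in the pathway itself, 4 of 5 tested NMD factor genes rose (80%), and 3 did so after centring on the median mRNA with 1 lower, NAM7 itself. NMD4, which encodes an Upf1-bound protein, had 0.0175 and 0.0235 reads per nt in upf1 and 0.00140 and 0.00330 in WT (log2 fold change 2.55, SE 0.36, limma adjusted p = 7.27e-04). UPF3 and NMD2 (UPF2), the core partners of Upf1, rose by 2.19 (SE 0.32) and 1.42 (SE 0.24), and the call of NMD2 is lost after centring. These 3 named genes lack an annotated antisense feature.

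Genes whose mRNAs are NMD targets in S. cerevisiae were called in 9 of 12 cases (75%, against 57.8% of all features), with a median of 2.57 against 1.19, and in 6 after centring with none lower. EST2, the catalytic subunit of telomerase, had 0.246 and 0.267 reads per nt in upf1, against 0.0118 and 0.0112 in WT (log2 fold change 4.31, SE 0.17, limma adjusted p = 1.88e-06). STN1, of the telomere capping complex, had 0.229 and 0.211 in upf1 and 0.0177 and 0.0176 in WT (log2 fold change 3.53, SE 0.18). EST1, a telomerase regulator, rose by 2.89 (SE 0.32), and CPA1, an arginine synthesis gene with a regulatory upstream reading frame in S. cerevisiae, by 2.86 (SE 0.24). The 2 upf1 libraries exceeded both WT libraries in each, and only STN1 of the 4 has an antisense lncRNA. PPR1, a classical NMD target of S. cerevisiae, was not called (log2 fold change 0.70).

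Telomere and silent chromatin genes overall had 9 of 17 members higher (52.9%, against 57.8% of all features), with EST2, STN1 and EST1 among them, and 6 higher and 2 lower after centring. RIF2, a Rap1-bound telomere protein, had 0.446 and 0.461 reads per nt in upf1 and 0.0468 and 0.0507 in WT (log2 fold change 3.18, SE 0.14). SIR2, SIR3, SIR4 and RIF1 were not called, with log2 fold changes of 0.03, 0.10, 0.51 and -0.09.

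In the 5' to 3' decay list 9 of 19 were higher (47.4%), with a median of 0.83, and after centring 2 were higher and 3 lower. LSM7 had 6 and 6 reads in upf1 and 0 and 3 in WT, and its call is lost without upf1 replicate 1 (limma adjusted p = 0.119) or replicate 2 (0.0991). EDC3, an enhancer of decapping, rose by 2.38 (SE 0.23) and LSM6, of the Lsm ring, by 2.33 (SE 0.18). In the exosome list 12 of 23 were higher (52.2%), and after centring 3 were higher and 3 lower. The RNA helicase gene SEN1 rose by 3.05 (SE 0.19) and SKI7, which links the exosome to the ribosome, by 3.03 (SE 0.25). The median of the exosome list, 1.17, drops to 0.74 when its 1 member with 0 WT reads is placed at its bound. In the deadenylation list 4 of 13 were higher (30.8%, median 0.73), led by POP2 at 2.12 (SE 0.22) and NOT5 at 2.04 (SE 0.27), and after centring 1 was higher and 2 lower. LSM7 and NOT5 lose their calls after centring.

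Of 26 mating genes tested, 18 were higher (69.2%, against 57.8% of all features), with a median of 1.99, and after centring 12 were higher and 4 lower. STE2 (chromosome 3, 777636 to 779069, plus strand), which in S. cerevisiae encodes the alpha-factor receptor and is expressed in a cells, had 2.22 and 2.29 reads per nt in upf1, against 0.0348 and 0.0243 in WT (log2 fold change 6.20, SE 0.19, limma adjusted p = 8.08e-07). XUT0490 on the other strand had 2.41 and 2.21 in upf1 and 0.0352 and 0.0353 in WT. Both strains are labelled MATalpha, and on each strand of this gene the upf1 libraries lay far above the WT libraries.

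BAR1, the gene for the protease that degrades alpha factor in S. cerevisiae, also an a-cell gene there, had 0.548 and 0.518 reads per nt in upf1 and 0.0182 and 0.0229 in WT (log2 fold change 4.61, SE 0.18, limma adjusted p = 1.83e-06). Its antisense partner XUT0213 had 0.416 and 0.464 in upf1 and 0.0223 and 0.0144 in WT. FAR1, which arrests the cell cycle during mating, rose by 3.25 (SE 0.13), and STE24, a protease that matures a-factor, by 3.03 (SE 0.20). Neither has an antisense feature. STE3, the a-factor receptor gene of alpha cells in S. cerevisiae, was not called (log2 fold change 0.61).

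Meiosis and sporulation genes, which S. cerevisiae keeps off in growing cells, were higher in 25 of 34 cases (73.5%, against 57.8% of all features, median 1.84), and after centring in 15 with 1 lower. REC114 (chromosome 6, 398871 to 399809, plus strand), needed for meiotic double-strand breaks, had 0.251 and 0.287 reads per nt in upf1, against 0.00671 and 0.00548 in WT (log2 fold change 5.16, SE 0.23, limma adjusted p = 2.56e-06). CUT0955 opposite to it rose by 4.13 (SE 0.25). SPS19, a peroxisomal enzyme gene induced in sporulation, rose by 4.66 (SE 0.44), and NDT80, the transcription factor of mid-meiosis, by 4.38 (SE 0.31). SPO21, of the meiotic spindle pole body, rose by 3.91 (SE 0.39). The WT libraries held no more than 14 reads for any of these 4 genes.

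Bud site genes had 8 of 20 members higher, below the 57.8% of all features, and after centring 6 higher and 5 lower, but the members that rose did so strongly. AXL2 (chromosome 2, 1259048 to 1261489, minus strand), an axial bud site landmark, had 0.581 and 0.569 reads per nt in upf1, against 0.00913 and 0.00702 in WT (log2 fold change 5.92, SE 0.22, limma adjusted p = 1.29e-06). XUT0370 and CUT0504 on its other strand rose by 6.55 (SE 0.16) and 7.0 (SE 0.15). AXL1, an axial budding protease that also matures a-factor, had 0.425 and 0.456 in upf1 and 0.0164 and 0.0168 in WT (log2 fold change 4.61, SE 0.19). BUD9 and BUD8, landmarks of bipolar budding, rose by 3.38 (SE 0.21) and 2.46 (SE 0.34).

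Nutrient transport genes followed. In the phosphate list 11 of 14 were higher (median 1.6), and 5 after centring with none lower. PHO84 (chromosome 2, 20530 to 22407, minus strand), the high-affinity phosphate transporter, had 0.133 and 0.121 reads per nt in upf1 and 0.00284 and 0.00457 in WT (log2 fold change 4.65, SE 0.25, limma adjusted p = 5.70e-06). VTC1, of the vacuolar polyphosphate synthase, had 0.642 and 0.620 in upf1 and 0.0331 and 0.0202 in WT (log2 fold change 4.53, SE 0.23). VTC4 of the same complex rose by 2.99 (SE 0.15) and PHO4, the transcription factor of the pathway, by 2.34 (SE 0.20). PHO84 and PHO4 have no antisense feature, whereas VTC1 and VTC4 lie opposite CUT0886 and XUT0555, which rose by 3.36 (SE 0.17) and 2.84 (SE 0.23).

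Of amino acid permease genes 11 of 16 were higher (median 1.80), and 7 after centring with none lower. SSY1 (chromosome 2, 589351 to 591888, minus strand), the amino acid sensor of the plasma membrane, had 2.77 and 2.85 reads per nt in upf1, against 0.104 and 0.0971 in WT (log2 fold change 4.78, SE 0.14, limma adjusted p = 7.76e-07). MUP1, the methionine permease, had 1.02 and 1.1 in upf1 and 0.0667 and 0.0679 in WT (log2 fold change 3.95, SE 0.13). UGA4, the GABA permease, had 76 and 96 reads in upf1 and 0 and 1 in WT, and GAP1, the general permease, rose by 3.48 (SE 0.35). Hexose transport genes had 3 of 5 higher and galactose genes 2 of 4, and after centring 2 and 0, with none lower. HXT14 and HXT5 rose by 3.37 (SE 0.30) and 2.77 (SE 0.30), and GAL1 and GAL4 by 2.29 (SE 0.37) and 1.82 (SE 0.28), the last 2 losing their calls after centring.

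Of iron uptake genes 9 of 12 were higher and of ergosterol genes 14 of 19, with medians of 1.24 for both, so that after centring they split into 4 higher with none lower and 6 higher with 3 lower. FET3, the multicopper oxidase of iron uptake, had 0.319 and 0.340 reads per nt in upf1 and 0.0322 and 0.0323 in WT (log2 fold change 3.29, SE 0.17, limma adjusted p = 5.21e-06), and FRE6, a vacuolar reductase, rose by 2.33 (SE 0.22). ERG9, squalene synthase, had 1.32 and 1.14 in upf1 and 0.0949 and 0.0897 in WT (log2 fold change 3.72, SE 0.13), opposite XUT0429, which rose by 3.78 (SE 0.12). ERG8, phosphomevalonate kinase, rose by 3.64 (SE 0.17) with no antisense feature. Of flocculin and cell wall mannoprotein genes 7 of 8 were higher and 5 after centring, with FIG2 at 3.83 (SE 0.24) and SED1 at 3.06 (SE 0.17).

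Of 108 cytosolic ribosomal protein genes 57 were higher (52.8%, median 0.79), and after centring 3 were higher and 31 lower, so that their direction depends on the scale. RPL28, itself an NMD target in S. cerevisiae through its intron, had 0.223 and 0.288 reads per nt in upf1 and 0.0438 and 0.0439 in WT (log2 fold change 2.49, SE 0.18), and RPL22B rose by 2.27 (SE 0.33). Translation factors had 12 of 34 higher and 1 lower (median 0.61), and after centring 1 higher and 9 lower, led by GCD7 at 2.40 (SE 0.28) and SUI1 at 2.0 (SE 0.25). The 1 lower was HCR1, an eIF3 subunit gene named here after its value was seen, with 0.00186 and 0.000836 in upf1 and 0.00477 and 0.00703 in WT (limma adjusted p = 0.0150). Its call is lost without upf1 replicate 2 (0.0683) or WT replicate 2 (0.083).

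The tRNA synthetase list had 8 of 17 higher (median 0.99, DPS1 1.58) and the proteasome list 10 of 33 (median 0.54, SCL1 2.11), with none higher and 3 lower, and 2 higher and 13 lower, after centring. Histone genes had the lowest median of the lists, 0.36, with only HTZ1, the H2A.Z variant, called higher among 8 (log2 fold change 2.19, SE 0.31), and none higher and 3 lower after centring. Glycolytic genes were higher in 10 of 14 (median 1.12), led by GLK1 at 2.03 (SE 0.22) and PGK1 at 1.77 (SE 0.22), and after centring 1 was higher and 2 lower. Heat shock genes were higher in 13 of 23 (median 1.30, CPR6 3.24, CPR3 2.84) and DNA replication genes in 14 of 35 (median 0.79), with 6 higher and 2 lower, and 5 higher and 1 lower, after centring. In the replication list, RNR1, the large subunit of ribonucleotide reductase, had 0.0632 and 0.0593 in upf1 and 0.00178 and 0.00231 in WT (log2 fold change 4.16, SE 0.23, limma adjusted p = 6.87e-06), and ORC3, of the origin recognition complex, rose by 3.34 (SE 0.24). Of the genes named here for the growth machinery, RPL22B, SUI1, DPS1, HTZ1 and PGK1 lose their calls after centring.

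**Figure D5:**
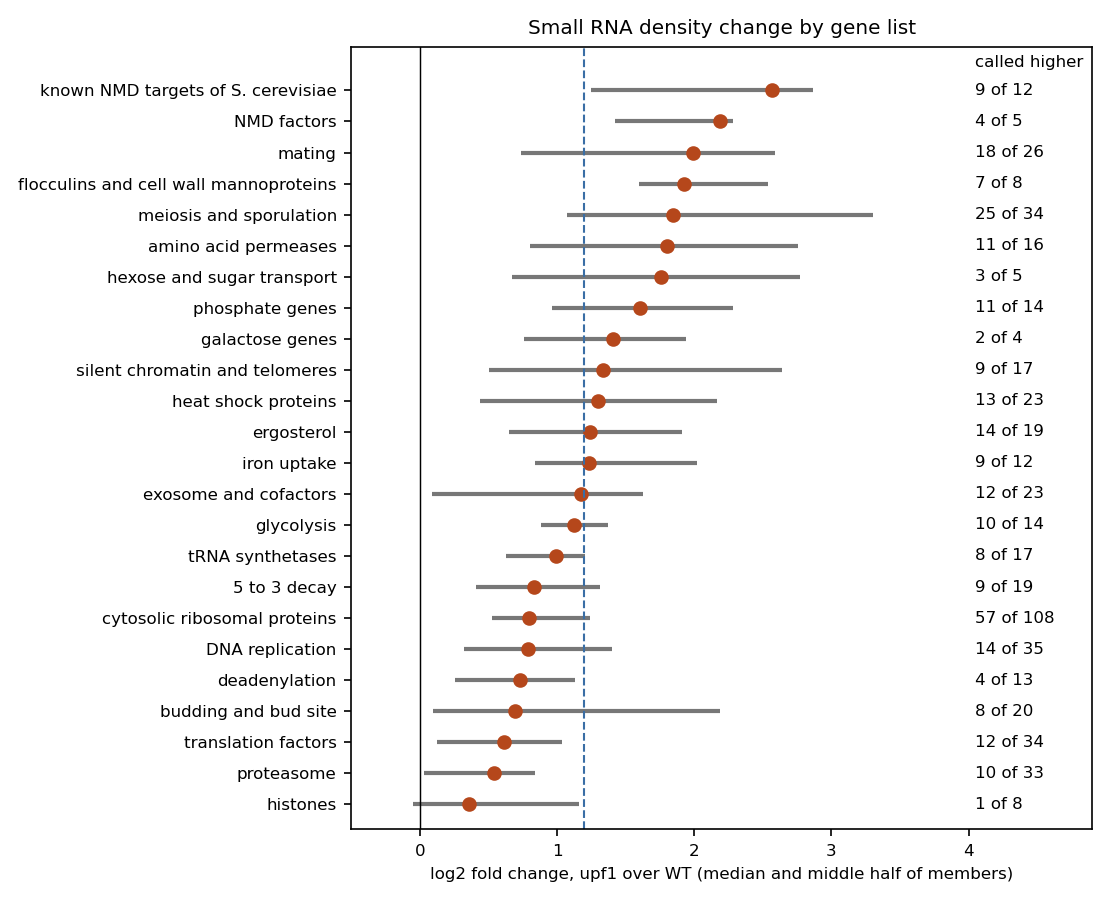
Median log2 fold change of upf1 over WT (red points) and the interquartile range of members (grey lines) for each gene list, with the number called higher of those tested at the right; the dashed line is the median of all features, 1.19. NMD targets of S. cerevisiae, NMD factors, mating genes and cell wall genes lie to the right of it, while ribosomal protein, translation, proteasome and histone genes lie to its left and drop below 0 after centring on the median mRNA.

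Of the 50 features lower in upf1 (0.635% of all tested), 12 were mRNAs (of 5361 tested), 11 CUTs (of 1143) and 11 tRNAs (of 241). The rest were 6 snoRNAs (of 37), 5 XUTs (of 950), 4 SUTs (of 133) and 1 snRNA (of 3). On the spike-in scale more snoRNAs were higher in upf1 (16 of 37) than lower, whereas after centring on the median mRNA 1 was higher and 20 lower. Those without a read in upf1, such as CUT0036 and XUT0122, passed the filter on low values only through WT or WT CHX. Their calls therefore follow in part from that filter. Some of the 50 overlap on the same strand and can share reads. The mRNA NCAS_0A02300 spans the snoRNA ENSRNA049639788, and the tRNA entries ENSRNA049596557 and NCAS_0Atrna4Y start at the same base. Among the largest falls, the snoRNA ENSRNA049639776 (chromosome 1, 2502841 to 2502941, plus strand) had 0.457 and 0.310 reads per nt in upf1 and 1.58 and 1.35 in WT (log2 fold change -1.95, SE 0.21, limma adjusted p = 1.72e-04). The snoRNA ENSRNA049639788 had 0.0365 and 0.00819 in upf1 and 0.169 and 0.138 in WT (log2 fold change -3.01, SE 0.57, limma adjusted p = 0.00328). SUT138 (chromosome 9, 94226 to 94537, minus strand) had 0.0218 and 0.0218 in upf1 and 0.0730 and 0.0641 in WT (log2 fold change -1.59, SE 0.20, limma adjusted p = 3.65e-04). The 2 upf1 libraries lay below both WT libraries in each.

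The snRNA ENSRNA049639701 had 1 and 1 reads in upf1 and 8 and 7 in WT. CUT1179, antisense to SLP1, had 0 and 5 reads in upf1 and 24 and 15 in WT, and its call is lost without WT replicate 1 (limma adjusted p = 0.104) or WT replicate 2 (0.0685). CUT0280, antisense to UBC7, had 2 and 6 reads in upf1 and 28 and 11 in WT, and is lost without upf1 replicate 1 (0.121) or WT replicate 1 (0.111). The tRNA NCAS_0Gtrna9N had 1 and 0 reads in upf1 and 8 and 2 in WT, and is lost without upf1 replicate 2 (0.175) or WT replicate 1 (0.198). The snoRNA ENSRNA049639782 had 0.995 and 0.408 reads per nt in upf1 and 1.82 and 1.75 in WT, and is lost without WT replicate 1 (0.057). In a fit of the upf1 and WT libraries alone, CUT1179, CUT0280 and NCAS_0Gtrna9N were not called (limma adjusted p 0.0765, 0.0671 and 0.104).

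Set directly against the WT strain under cycloheximide, a drug that blocks translation and so NMD, upf1 was higher at 1717 features (21.8%) and lower at 1904 (24.2%), and after centring on the median mRNA 2512 were higher and 911 lower. The count of lower features was 1206 without upf1 replicate 1 and 1167 without upf1 replicate 2. Of 950 XUTs, 456 were higher in the mutant and 84 lower, and of 1143 CUTs 380 were higher and 148 lower. Of 133 SUTs, 20 were higher and 45 lower, and of 5361 mRNAs 837 were higher and 1569 lower. The rest of each class was not called. These class counts use the spike-in scale and were not taken after centring. The median log2 difference was -0.51 in SUTs and -0.47 in mRNAs, against 0.76 in XUTs and 0.29 in CUTs. The median mRNA had a log2 density of -5.69 and -5.73 in upf1 and -5.10 and -5.27 in WT CHX. Centring removes this gap, which is close in size to the SUT and mRNA medians. The direction of these 2 classes therefore depends on the scale. XUT0919 and XUT0920 at the end of chromosome 9 differed most, the first with 8.61 and 8.32 reads per nt in upf1 and 0.176 and 0.104 in WT CHX (log2 difference 5.95, limma adjusted p = 8.19e-06), and the second with 0.139 and 0.140 in WT CHX. XUT0388 had 0.0604 and 0.0914 in upf1 and 0 in both WT CHX libraries. In the other direction, NCAS_0E02010 had 0 reads in both upf1 libraries and 0.203 and 0.132 reads per nt in WT CHX, XUT0122 had 0 in upf1 and 0.0837 and 0.0726 in WT CHX, and the tRNA NCAS_0Htrna7G had 0 in upf1 and 0.0833 and 0.0361 in WT CHX. Features at 0 in either group passed the filter on low values only through other libraries. Their calls therefore follow in part from that filter.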

How the data were processed

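Small RNA libraries came from 25 µg of total RNA mixed with 1 µg of S. pombe RNA, whose 22 to 23 nt centromeric small RNAs are the spike-in, with RNA below 80 nt taken from 15% gels, per the labels' protocols. The deposited values are a coverage signal, a spike-in scaled density of reads per nt made by the authors. The submitters' processing notes name Bowtie, Trim Galore and, as a genome build, ASM294v2 of S. pombe. Not given in the sources used here: the N. castellii build, the read lengths counted, and how reads with several matches were handled. Coordinates are as deposited, and mRNA intervals are coding lengths, 97.6% of them being multiples of 3. Symbols for 4484 mRNAs came from the RefSeq gene table.

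Density times length gave whole reads for 100% of entries within 0.001 reads, from which read numbers were recovered. Of 8770 entries, 92 synthetic controls and 271 repeats of an interval were left out, and 5 columns of group means were not used. XUT and CUT annotations can share an interval and its reads: 774 features overlap another on the same strand, none of them an mRNA overlapping a lncRNA. limma 3.58.1 in R 4.3.3 tested log2(density + 0.00148) with group means, a trend in the moderated variance, and p-values adjusted by Benjamini-Hochberg over 7872 features in 6 Dicer-proficient libraries, two-sided. Fold changes on this scale understate those of sparse features. Features with a mean below the pseudocount were not tested. A read floor is 3 reads over a group and covers counting error only. The procedure was tested on simulated data.

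Named features follow a rule, which starts with NAM7, DCR1 and AGO1. Rises and falls were taken from called features whose upf1 and WT libraries did not overlap and whose denser group reached the median. The 4 largest rises in each of XUT, CUT, SUT and mRNA were named, with 2 more mRNAs without a symbol. So were the 8 largest falls. The 12 densest features were named whether called or not. Up to 4 called members per gene list and 3 features per direction in the other contrasts were added. The 25 gene lists were matched by symbol, and the RNAi list had no match. Members and lists were chosen with earlier results of these data known. Replicate numbers shared between groups did not pair the libraries (correlations of deviations -0.014, -0.018 and -0.001). Alternatives were other pseudocounts, filters, scalings, sets of libraries, a replicate block, leaving out each library, other overlaps, 1 feature per overlapping cluster and, added after seeing the data, limma voom on the recovered reads.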

Additional observations from a re-analysis of the deposited data

How the results depend on the processing

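Counts of features higher in upf1 than in WT or WT CHX kept within 1.5 times their value under every alternative but centring on the median mRNA, which gave 2114 higher features, 1026 lower, 481 XUTs, 423 CUTs, 21 SUTs and 1184 mRNAs, and 911 features below WT CHX. Scaling on tRNA, rRNA and snoRNA gave 82 lower features, and a filter 10 times stricter 1158 features below WT CHX. Leaving out 1 library gave 3704 to 4195 higher features and 44 to 65 lower, and 1167 to 1907 below WT CHX. The replicate block gave 4472 higher and 57 lower features, but 0 and 0 strand ratio pairs, and ended no other call of a named feature. The pairs were also 0 and 0 in the fit of upf1 and WT alone and without any 1 library, 164 higher and 59 lower with a 10 times larger pseudocount, 21 higher with the stricter filter, 14 higher with all 10 libraries and 4 higher and 6 lower at an overlap of 500 nt.

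The ratios of summed density, upf1 over WT, were 2.83 for XUTs, 4.53 for CUTs and 4.45 for mRNAs without the 10 densest features. On the median-mRNA scale XUTs stood at 0.926, CUTs at 1.33, SUTs at 1.19, mRNAs at 1.06, tRNAs at 0.528 and snoRNAs at 0.547, and on the tRNA, rRNA and snoRNA scale the same classes stood at 1.74, 2.50, 2.24, 1.99, 0.988 and 1.03. Without any 1 library the ratios of all 6 classes stayed above 1 on the spike-in scale. They also lay within the SD over the pairs of libraries. That SD cannot judge them, because each is close to a mean of some of the same pairs.

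Centring turned the sign of NCAS_0A09620 (-0.81), NCAS_0A09630 (-0.58), XUT0480 (-1.17), XUT0525 (-1.19), NCAS_0E00690 (-0.59), XUT0620 (-0.41), XUT0769 (-0.31), XUT0891 (-0.035), XUT0909 (-0.74), XUT0958 and CUT1261 (-0.55 each). Scaling on tRNA, rRNA and snoRNA turned XUT0480 (-0.27) and XUT0525 (-0.28), and leaving out upf1 replicate 1 turned XUT0525 (-0.024, and 0.092 without upf1 replicate 2). The cause of these changes was not tested. Count models of edgeR and DESeq2, planned as alternatives, were not run. NAM7 passed the test with a 10 times smaller pseudocount (limma adjusted p = 0.0426), after centring (0.0136) and with limma voom, added after seeing the data (0.00848). Voom gave 4829 higher and 36 lower features and ended the calls of 4 of 104 named features. With 2 libraries a group, sparse features are the least certain.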

Other observations

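Of 218 nuclear tRNAs tested, 29 (13.3%) were higher in upf1 and 10 lower, next to 57.8% and 0.635% of all features. Grouped by the amino acid in the entry name, the largest shares higher were in the cysteine (2 of 4), proline (4 of 9), threonine (4 of 12) and tryptophan (2 of 7) sets. None of these sets had a member lower. The leucine set had 3 of 19 higher and none lower, near the 13.3% of all nuclear tRNAs. The tyrosine set had 3 of 8 lower and the asparagine set 2 of 9, with none higher. Summed over its features, the tyrosine set had 0.354 and 0.176 reads per nt in upf1 and 0.483 and 0.488 in WT, and the threonine set 1.89 and 1.90 in upf1 and 0.966 and 1.08 in WT. After centring on the median mRNA, 4 nuclear tRNAs were higher and 60 lower.

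Among 34 mitochondrial features tested, 4 tRNAs were higher and 1 lower (0 features higher and 16 lower after centring on the median mRNA), and none of the 8 mRNAs or 2 rRNAs was called by limma. The median log2 fold change was 0.32 for the mitochondrial tRNAs and 0.40 for the mitochondrial mRNAs. All 10 nuclear rRNA entries, both entries of the signal recognition particle RNA and 66 tRNAs had 0 reads in all upf1 and WT libraries, so their levels are listed at 0 and not compared.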
